A study of Mus musculus with 15 samples.

Results

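The 8 genes described here, Timp3, Efemp1, C1qtnf5, Mfrp, Vtn, Htra1, Col8a1 and Fbln5, encode proteins of the matrix beneath the retinal pigment epithelium (RPE), or of its cell surface, that are tied to inherited or age-related disease of the macula or to eye size. They were found by symbol among 46078 genes in 1 deposited table of fragment counts, and all 8 have a row. The table holds 15 libraries of RPE RNA from female mice at postnatal day 14, with RNA taken from 2 hours after light onset. Every library carries the same strain label, which mixes C57BL/6J with the B6;129-Mertktm1Grl/J line, the source of the targeted Mertk allele. The 4 groups were Mertk WT (4 libraries), Mertk KO (4), Bai1 Tg neg (4) and Bai1 Tg pos (3), and both Bai1 groups are labelled wild type for Mertk. Mertk is the receptor tyrosine kinase with which the RPE takes up shed photoreceptor tips, and Bai1 (gene symbol Adgrb1) is an adhesion receptor for phosphatidylserine. Neither the promoter that drives the transgene nor the animal behind each library is stated, so a p-value here covers the spread between libraries of a group, whether that is biological or technical.

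Total counts were 9591129 to 20024507 per library. Mertk was counted at 155 to 195.9 CPM (counts scaled to library size) in the Mertk KO libraries and 233.3 to 261.9 CPM in Mertk WT, values that sum all exons and do not show which of them the knockout allele keeps. Adgrb1 was at 166.2 to 169.9 CPM in Bai1 Tg pos and at 0 to 0.142 CPM in 3 of the 4 Bai1 Tg neg libraries, but at 143.5 CPM in the library labelled Bai1 Tg neg 4, which goes against its label. The differences of the measured genes in comparisons that use this library are given with and without it. Of 18 RPE markers, 16 averaged over 1 CPM, and Rpe65, the visual cycle isomerase, was at 4175 to 6667 CPM. Best1, also an RPE marker, averaged 0.743 CPM. Of 15 macrophage and 12 endothelial markers, 13 and 8 averaged under 1 CPM. Csf1r, a macrophage receptor, still averaged 657.4 CPM and Ramp2, abundant in endothelium, 134.8 CPM. Under 1 CPM were 5 of 10 Muller glia, 6 of 12 fibroblast and 4 of 12 smooth muscle and pericyte markers. So were 3 of 9 choroidal melanocyte and 6 of 10 ciliary body and iris markers. The most abundant of these lists were Glul (2620 CPM), Ogn (121.5 CPM), Acta2 (205.1 CPM), Sox10 (265.3 CPM) and Calml4 (135.2 CPM). The part of RNA from other cells in the levels below was not tested.

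Bruch membrane is the thin sheet of collagen and elastin between the RPE and the capillaries of the choroid. Nutrients that pass from the choroid to the outer retina cross it. The RPE lays down part of it and also secretes the proteases and inhibitors that turn it over. TIMP3, an inhibitor of matrix metalloproteases, is mutated in Sorsby fundus dystrophy, EFEMP1 (fibulin-3) in Doyne honeycomb dystrophy, and C1QTNF5 in late-onset retinal degeneration. HTRA1 is a secreted serine protease at a locus for age-related macular degeneration. COL8A1 is a chain of type VIII collagen, FBLN5 (fibulin-5) an organiser of elastic fibres, VTN (vitronectin) an adhesion protein found in drusen, and MFRP a frizzled-related membrane protein whose loss shortens the eye.

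C1qtnf5 had 0 counts in all 15 libraries, and the layout of the table gives this value whatever the gene's expression. Mfrp and C1qtnf5 lie on the same strand at chr9:44101738-44109187 and chr9:44107245-44109187 (GRCm38, as in the deposited table), and all 1398 exonic bases of C1qtnf5 are also exonic bases of Mfrp. The counting command assigned no fragment to 2 genes, so a fragment wholly within these bases went to neither. The 0 therefore sets no limit on C1qtnf5 RNA, and its level was not measured. The table has 998 genes (2.17%) without an exonic base of their own, and 973 of them were at 0 in every library. In Mfrp, 1452 of 4325 exonic bases (33.6%) were shared, 54 of them with the antisense gene Rnf26, which leaves 2873 shared with no other gene. The antisense gene Gm20444 at the same locus shares 729 bases with both and was also at 0 throughout.

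The sequences that show this overlap are the window around the C1qtnf5 start codon, which reads the same in a transcript of each gene, and the window that ends the Mfrp reading frame. They are GENCODE M21 transcript sequences of GRCm38, plus strand, with the start or stop codon in capitals. The C1qtnf5 start window is at chr9:44107746-44107775 (bases 3198 to 3227 of an Mfrp transcript of 4316 bases and 141 to 170 of a C1qtnf5 transcript of 1259 bases), and the Mfrp stop window at chr9:44106438-44106467 (bases 1890 to 1919 of the same Mfrp transcript).
Mfrp transcript, C1qtnf5 start: ggggtcaccaccATGaggccacttcttgcc
C1qtnf5 transcript, C1qtnf5 start: ggggtcaccaccATGaggccacttcttgcc
Mfrp transcript, Mfrp stop: gctagcctggaagcttgctcccagcccTGA

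The start window occurred in 10 annotated transcripts, 3 of the 6 of Mfrp and 7 of the 8 of C1qtnf5, and in those of no other gene. All 729 coding bases of the C1qtnf5 transcript lay inside exons of the Mfrp transcript, after the Mfrp stop codon, and 1290 transcript bases separate that stop from the C1qtnf5 start. The long Mfrp transcript thus holds both reading frames in sequence, and a fragment wholly within the second frame cannot be given to either gene. RefSeq (GRCm38.p6) also lists 1 promoter for both genes, shown here as chr9:44101520-44101737, plus strand, which ends just before the first exonic base of the deposited table.
Mfrp and C1qtnf5 promoter: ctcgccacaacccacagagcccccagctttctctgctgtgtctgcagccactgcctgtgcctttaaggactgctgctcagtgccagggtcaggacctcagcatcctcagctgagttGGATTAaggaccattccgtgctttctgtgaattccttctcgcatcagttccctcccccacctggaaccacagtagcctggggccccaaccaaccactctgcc

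The capitals mark 1 match to TAATCC read on the other strand, the core bound by OTX2 and CRX. Both strands of the 250 bases before each start were searched, and 6.25% of 32851 RefSeq promoters held this motif. Promoters were listed for all 8 genes, and the motif was in none of the other 6. The E-box of MITF and its relatives, CACGTG, was in none of the 8 and in 6.02% of all promoters. The MITF core CATGTG, which differs from both, was in that of Vtn only and in 12.3% of all promoters. A match describes these letters and says nothing of binding.

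**Figure D1:**
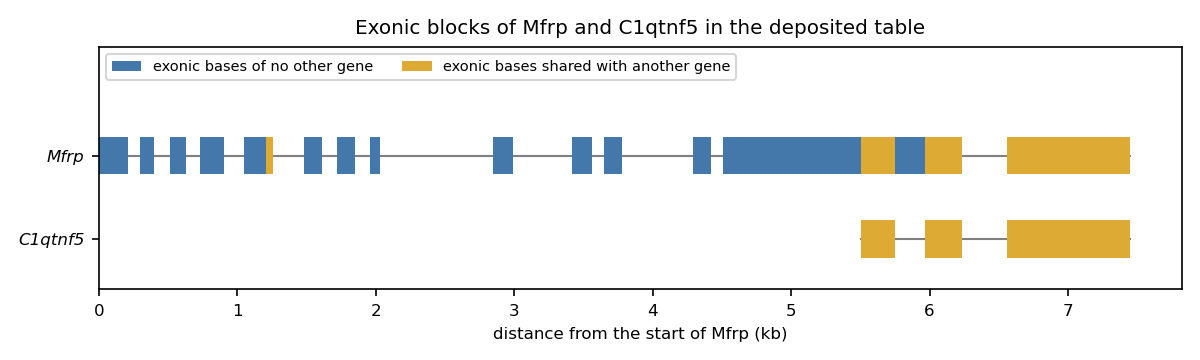
Exonic blocks of Mfrp and C1qtnf5 in the deposited table, as distance from the start of Mfrp in kb. Blue blocks belong to Mfrp alone. Yellow blocks are shared with another gene, and a fragment wholly within them is counted for none. C1qtnf5 has yellow blocks only (1398 of 1398 bases).

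The other 7 genes had counts in all 15 libraries and passed the filter on low counts in every comparison. Timp3 (chr10:86300372-86349506, plus strand) shares 1733 of its 8144 exonic bases (21.3%) with the antisense gene Syn3. Syn3 held 1587 counts over all libraries against 879064 for Timp3. Efemp1 (chr11:28853204-28926743, plus), Vtn (chr11:78499091-78502324, plus), Htra1 (chr7:130936111-130985660, plus), Col8a1 (chr16:57624258-57754737, minus) and Fbln5 (chr12:101746565-101819055, minus) share no exonic base with another gene. Htra1 lies within the span listed for the antisense gene Fgfr2. None of the 8 genes is on chromosome 2, which carries Mertk.

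Levels were compared between genes per length, as RPKM (fragments scaled by the kilobases of unshared exon and by library size). Col8a1 was highest, at 937 ± 65.4 RPKM (SD, n = 15), rank 28 of 25107 detected genes. Mfrp followed with 775.7 ± 42.3 RPKM (rank 36) and Timp3 with 586.6 ± 78.8 RPKM (rank 48). For scale, Rpe65 was at 2708 ± 352.7 RPKM. So 3 of the 7 measured genes ranked 48 or higher in these samples.

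Below them came the protease Htra1 at 50.5 ± 6.66 RPKM (rank 1010) and Fbln5 at 46 ± 6.77 RPKM (rank 1124). Vtn was at 21.7 ± 5.87 RPKM (rank 2425) and Efemp1 at 6.77 ± 1.14 RPKM (rank 6168). The step from Timp3 to Htra1 was the widest, 11.8-fold on average and at least 8.16-fold in every library. Efemp1, the lowest, was exceeded by Vtn in all 15 libraries, by 1.73-fold to 5.75-fold.

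Not all neighbours in this order stood apart. Col8a1 exceeded Mfrp in 14 of 15 libraries and Htra1 exceeded Fbln5 in 10 of 15, and in both pairs the ranges overlapped. Fbln5 was above Vtn within each library, though the ranges over libraries overlapped. Over the full exonic length the mean fell to 515 RPKM for Mfrp and 462 RPKM for Timp3, with Mfrp higher in 12 of 15 libraries rather than all 15, and the order of the means stayed. Whether fragments partly in shared bases were counted was not checked. If they were, RPKM over unshared bases alone is too high for Mfrp and Timp3.

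The closest relatives of these genes, and their partners, show which member of each family predominated in these samples. Those named in this paragraph were chosen after their values were seen. Col8a2, the second chain of type VIII collagen, was at 689.4 ± 100.3 RPKM (rank 42), between Mfrp and Timp3. Among metalloprotease inhibitors, Timp2 was at 172.6 ± 13.5 RPKM, Timp1 at 0.437 and Timp4 at 0.0277, so Timp3 was the highest of the 4. Htra1 exceeded Htra2 (9.2 ± 1.03 RPKM) and Htra3 (1.07 ± 0.189 RPKM). Efemp1 was the lower of the 2 Efemp genes, since Efemp2 (fibulin-4), an elastic fibre assembly protein, was at 30.1 ± 2.58 RPKM. Fbln2 was at 6.72 ± 1.72 and Fbln1 at 1.48 ± 1.27 RPKM, both below Fbln5. Of the integrin chains that bind vitronectin, Itgav was at 63.7 ± 4.44, Itgb5 at 96.5 ± 10.5 and Itgb3 at 3.28 ± 0.512 RPKM.

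**Figure D2:**
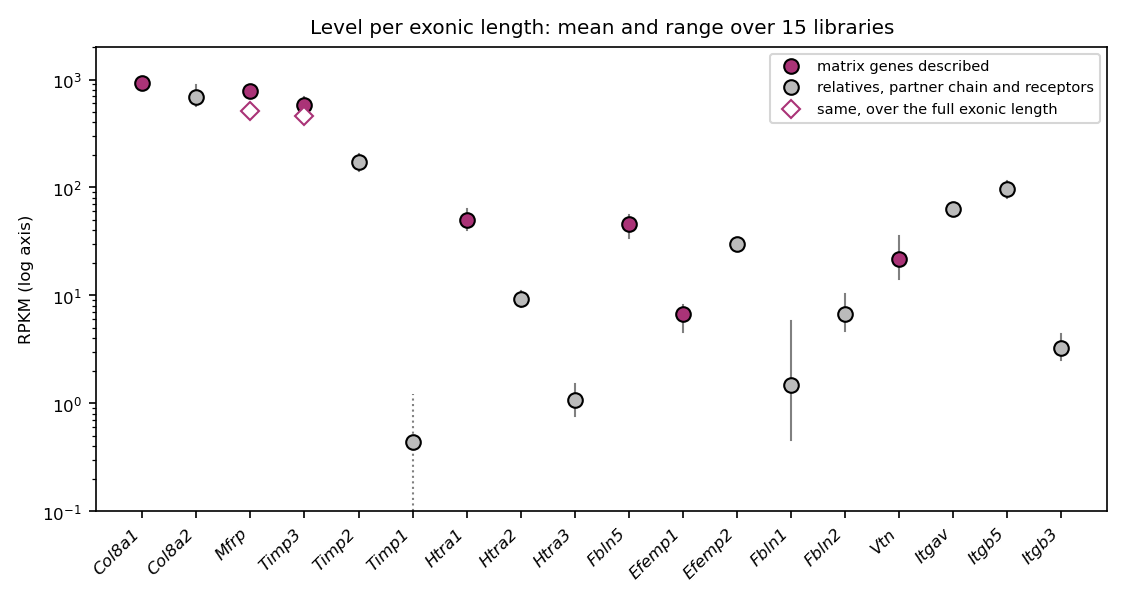
Mean RPKM (log axis) of the 7 measured matrix genes (purple) and of relatives, a partner chain and receptors (grey); lines span the lowest and highest of 15 libraries, dotted where the lowest is 0. Open diamonds give Mfrp and Timp3 over their full exonic length (515 and 462 RPKM). Col8a1, Mfrp and Timp3 lead with means of 937, 775.7 and 586.6 RPKM, and Efemp1 lies lowest of the 7.

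Between libraries these genes differed widely in constancy. Mfrp deviated from its own mean by 0.076 on the log2 scale (root mean square over 15 libraries), and only 2.37% of 14037 tested genes deviated less. Col8a1 deviated by 0.097, with 7.43% of genes below it. Vtn deviated most of the 7, by 0.356, with 69.3% of genes below it, against a median gene at 0.219.

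Mertk KO was set against Mertk WT to ask whether loss of Mertk alters the RPE transcriptome. Of the 7 measured genes, 0 passed the adjusted threshold of 0.05 in edgeR's quasi-likelihood test, where 30 of all 13447 tested genes (0.223%) passed. One of the 7, Vtn, had an unadjusted p under 0.05, as did 5.58% of all genes, and of the 7 DESeq2 called this gene alone. The median difference of the 7 was -0.005 on the log2 scale, beside -0.001 over all tested genes.

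Vtn, the adhesion protein, was counted at 50.6, 72.2, 62.2 and 54.2 CPM in the Mertk WT libraries. In Mertk KO it was at 46.5, 41.6, 45.4 and 41.1 CPM. All 4 knockout libraries were below all 4 wild-type libraries, a separation that 1.78% of all tested genes showed in this direction and 3.52% in either. The difference was -0.46 on the log2 scale (SE 0.109, 95% interval -0.70 to -0.22), with an adjusted p of 0.224 in edgeR's quasi-likelihood test. It passed in DESeq2 (-0.46, adjusted p = 0.0427) and in edgeR without the low-count filter (adjusted p = 0.0304), whereas leaving out single libraries gave -0.53 to -0.36 with adjusted p between 0.104 and 0.619. The 3 + 3 Mertk libraries with first tag number 17, a number in the library descriptions whose meaning is not given, gave -0.47 (adjusted p = 0.736).

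The collagen chain Col8a1 was at 4559, 4631, 5172 and 4362 CPM in Mertk WT and 5255, 5271, 4666 and 4840 CPM in Mertk KO. The groups overlapped, and the difference was 0.09 on the log2 scale (95% interval -0.07 to 0.25, edgeR adjusted p = 0.912). Timp3 was at 3899, 4094, 4180 and 3909 CPM in Mertk WT and 4073, 4226, 4392 and 3955 CPM in Mertk KO, a difference of 0.04 (95% interval -0.10 to 0.18). Mfrp, at 2311 ± 117 CPM in wild type and 2307 ± 81.3 CPM in knockout (n = 4 each), differed by -0.01 (95% interval -0.15 to 0.14). The intervals of these 3 abundant genes all lay between -0.15 and 0.25.

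The intervals of the less abundant genes were wider. Fbln5 was at 294.8, 326.6, 199.5 and 229.8 CPM in wild type and 240.2, 248.1, 252.7 and 231.3 CPM in Mertk KO, and the difference was -0.12 (95% interval -0.40 to 0.17). The wild-type libraries lay on both sides of the knockouts. Htra1 was at 144.8 ± 19.4 CPM in wild type and 153.6 ± 25 CPM in knockout (n = 4 each), a difference of 0.08 (95% interval -0.20 to 0.36). Efemp1 was at 12.2 ± 1.58 CPM and 12.1 ± 1.99 CPM, a difference of -0.00 (95% interval -0.34 to 0.34). The directions of Efemp1, Mfrp and Htra1 changed with single libraries or settings.

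**Figure D3:**
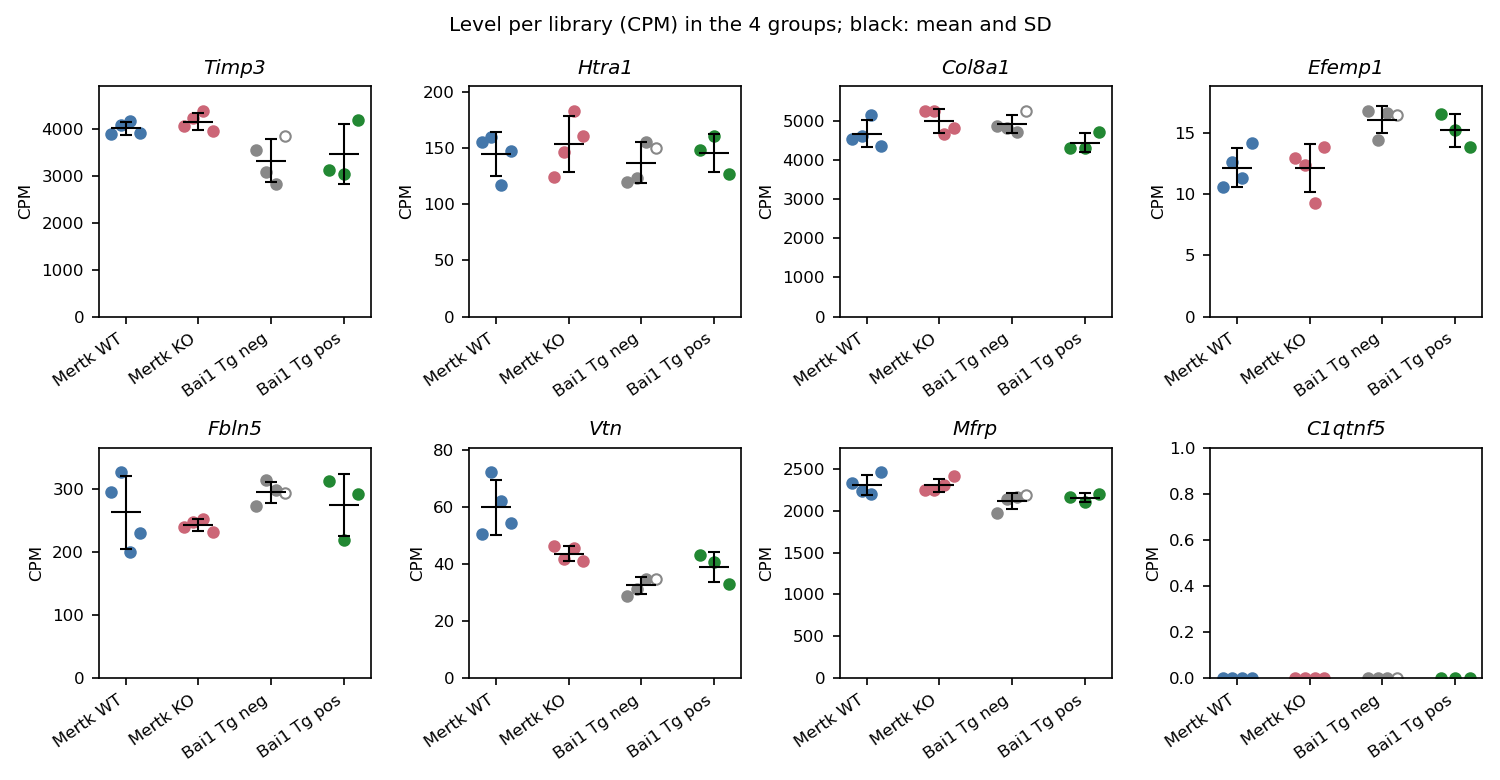
CPM of each gene in every library, by group; points are libraries, black bars the mean and SD, and the open circle marks Bai1 Tg neg 4, whose Adgrb1 goes against its label. Vtn is the gene whose Mertk KO points (41.1 to 46.5 CPM) lie wholly below Mertk WT (50.6 to 72.2 CPM), and C1qtnf5 is at 0 throughout.

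Another 170 genes were taken from 8 lists, not all of them genes of Bruch membrane. The lists were basement membrane, elastic fibre, other collagens, proteases and inhibitors, C1q and TNF related family, eye size, vitronectin receptors and other macular disease genes. In Mertk KO against Mertk WT, 127 of the 170 were tested. Of these, 1 rose and 0 fell in edgeR (0.223% of all tested genes passed), with 7 at an unadjusted p under 0.05 (5.58% of all genes), and the median difference was 0.04 on the log2 scale. The gene that rose was Fbln7, a fibulin of the elastic fibre list, at 27.6, 32.8, 28.2 and 32 CPM in Mertk WT and 51, 63.2, 66.1 and 60.8 CPM in Mertk KO. The groups did not overlap, and the difference was 1.00 (SE 0.105, edgeR adjusted p = 0.000966). Fbln7 lies on chromosome 2, 60.1 kb from Mertk, and the part of linkage to the targeted allele in its difference was not tested. DESeq2 called Fbln7 and Col27a1, among 74 genes in all. The fibulins among the 8 genes, Efemp1 and Fbln5, lie on other chromosomes and did not pass.

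Bai1 Tg pos was set against Bai1 Tg neg to ask what the transgene changes in RPE that has Mertk. Here 0 of the 7 genes passed in edgeR or in DESeq2, where 2 of all 13855 tested genes (0.0144%) passed in edgeR, or 5 without Bai1 Tg neg 4. Vtn and Col8a1 had an unadjusted p under 0.05, as did 5.18% of all genes. The groups overlapped for all 7 genes, while 6.2% of all tested genes did not overlap. The median difference of the 7 was 0.03, beside -0.00 over all genes.

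Vtn was at 28.9, 31.3, 34.8 and 34.8 CPM in Bai1 Tg neg and 43, 40.8 and 33 CPM in Bai1 Tg pos. The libraries Bai1 Tg pos 1 and 2 were above every negative library, and Bai1 Tg pos 3 lay among them. The difference was 0.26 on the log2 scale (95% interval 0.01 to 0.51, edgeR adjusted p = 0.948). With Bai1 Tg neg 4 left out it was 0.30 (adjusted p = 0.988).

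Col8a1 was at 4871, 4833, 4725 and 5251 CPM in Bai1 Tg neg and 4318, 4305 and 4736 CPM in Bai1 Tg pos. The lowest negative library was just under the highest transgenic one, and the difference was -0.14 (95% interval -0.28 to -0.00, edgeR adjusted p = 0.948). Bai1 Tg neg 4, the library with the Adgrb1 level against its label, held the highest value, and the difference was -0.11 without it.

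Timp3 varied within both Bai1 groups, at 3545, 3077, 2824 and 3853 CPM in Bai1 Tg neg and 3130, 3050 and 4199 CPM in Bai1 Tg pos. The highest libraries of the set were Bai1 Tg pos 3 and Bai1 Tg neg 4, and the difference of 0.06 (95% interval -0.26 to 0.38) became -0.10 without Bai1 Tg pos 3 and 0.14 without Bai1 Tg neg 4. The interval for Timp3 was thus about as wide as that for the scarce Efemp1 (-0.08, 95% interval -0.39 to 0.23). Mfrp, at 2121 ± 96.4 CPM (n = 4) and 2159 ± 52.7 CPM (n = 3), differed by 0.03 (95% interval -0.10 to 0.16). Htra1 differed by 0.09 (95% interval -0.14 to 0.32) and Fbln5 by -0.10 (95% interval -0.32 to 0.13). Without Bai1 Tg neg 4 the difference was -0.07 for Efemp1, 0.05 for Mfrp, 0.14 for Htra1 and -0.10 for Fbln5, and none passed.

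Of the other 170 genes of the lists, 130 were tested in this comparison and 0 passed in edgeR, with 14 at an unadjusted p under 0.05 (5.18% of all tested genes) and a median difference of -0.00. DESeq2 called 1, Plau, the urokinase that cleaves plasminogen, as higher in Bai1 Tg pos, among 21 genes in all.

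The wild-type controls of both sets, Mertk WT and Bai1 Tg neg, were compared to show how far the sets differ without any change in Mertk; each control group also enters 1 of the comparisons above. Vtn rose to 59.8 ± 9.57 CPM in Mertk WT from 32.5 ± 2.9 CPM in Bai1 Tg neg (n = 4 each), 1.84-fold. It was the 1 gene of the 7 to pass, where 58 of all 13459 tested genes (0.431%) passed, or 28 without Bai1 Tg neg 4. The difference was 0.88 on the log2 scale (SE 0.114, 95% interval 0.64 to 1.13, edgeR adjusted p = 0.00509), the lowest Mertk WT library being at 50.6 CPM and the highest Bai1 Tg neg library at 34.8 CPM. Leaving out Bai1 Tg neg 4 gave 0.92 (adjusted p = 0.0145), and leaving out each library in turn gave 0.78 to 0.95 with adjusted p up to 0.0318.

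Efemp1 had its levels in the other order, at 10.6, 12.6, 11.3 and 14.2 CPM in the Mertk controls and 16.8, 14.4, 16.6 and 16.4 CPM in the Bai1 controls. The difference was -0.41 (95% interval -0.68 to -0.13), which did not pass in edgeR (adjusted p = 0.293). Timp3 was at 4021 ± 139 CPM in the Mertk controls and 3325 ± 462 CPM in the Bai1 controls (n = 4 each), a difference of 0.27 (95% interval 0.08 to 0.47, edgeR adjusted p = 0.348). The highest Bai1 Tg neg value of Timp3, 3853 CPM, belonged to Bai1 Tg neg 4 and was still under the lowest Mertk WT value. Mfrp differed by 0.12 (95% interval -0.02 to 0.27). In all, 4 of the 7 genes did not overlap between the control groups, Vtn, Timp3 and Mfrp being higher (2.96% of all tested genes) and Efemp1 lower (2.79%) in Mertk WT, where 5.74% of all genes did not overlap. An unadjusted p under 0.05 was found for 3 of the 7 and for 7.99% of all genes.

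Htra1 (0.08, 95% interval -0.17 to 0.32), Col8a1 (-0.07, 95% interval -0.22 to 0.08) and Fbln5 (-0.17, 95% interval -0.46 to 0.13) overlapped between the control groups. Without Bai1 Tg neg 4 the differences were 0.35 for Timp3, -0.40 for Efemp1, 0.14 for Mfrp, 0.125 for Htra1, -0.04 for Col8a1 and -0.17 for Fbln5, and none of these 6 passed. Of the listed matrix and macular genes, 125 were tested here and 0 passed in edgeR, with 16 at an unadjusted p under 0.05 (7.99% of all tested genes) and a median difference of 0.03. DESeq2 called 221 genes in all, and 5 of the lists, each higher in Mertk WT: Impg1, Impg2, Prom1, Prph2 and Rp1l1. Each of these is known from photoreceptors or the matrix around them.

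**Figure D4:**
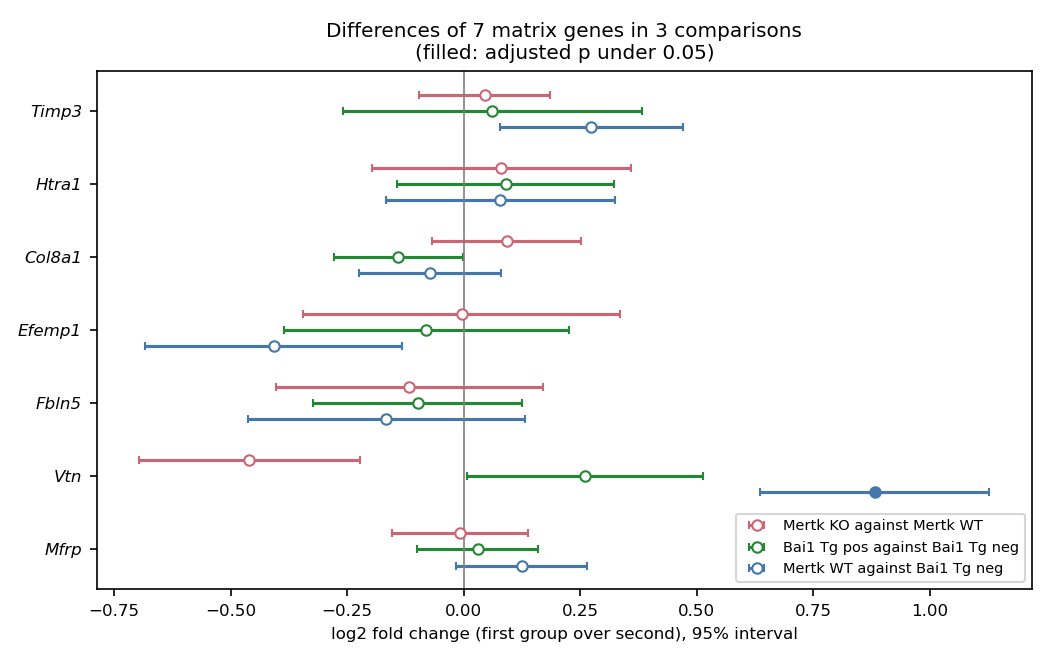
Log2 fold change (first group over second) of the 7 measured genes in 3 comparisons, with 95% intervals; filled points have an adjusted p under 0.05. The only filled point is Vtn in Mertk WT against Bai1 Tg neg, at 0.88.

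Rod photoreceptor transcripts differed between the sets in the same direction as Vtn. Of 20 rod markers, 19 did not overlap between the control groups, all 20 were higher in Mertk WT, and their median difference was 3.58 on the log2 scale. The mean log2 CPM of the list was 4.83 to 6.81 in Mertk WT, 4.82 to 5.69 in Mertk KO, 2.1 to 3.69 in Bai1 Tg neg and 2.20 to 4.60 in Bai1 Tg pos. The summed CPM of the list was 2308 to 5600 in Mertk WT, 2260 to 3017 in Mertk KO, 1305 to 1706 in Bai1 Tg neg and 1558 to 2248 in Bai1 Tg pos, of which Slc24a1, a cation exchanger, made up 1067 to 1527 CPM in every library. No rod marker averaged under 1 CPM. Between the control groups Rom1 and Samd7 passed in edgeR (0.54 and 5.37, adjusted p = 0.0265 and 0.0218), and both calls were lost without Bai1 Tg neg 1, 2 or 4 (adjusted p between 0.06 and 0.126), that of Rom1 also without Mertk WT 3 (0.0773) and that of Samd7 without Bai1 Tg neg 3 (0.0727). In bulk RNA, fewer cells of a type and less RNA per cell cannot be told apart.

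A macrophage marker differed in the other direction between the same groups. Cd68, a lysosomal protein, had 6.15 ± 1.38 CPM in the Mertk controls and 13.3 ± 2.67 CPM in the Bai1 controls (n = 4 each), a difference of -1.11 (edgeR adjusted p = 0.0262). The call was lost without Mertk WT 3 (adjusted p = 0.083) or without Bai1 Tg neg 1, 2 or 3 (0.11, 0.121 and 0.0592). Csf1r, the only other macrophage marker tested of 15, differed by 0.07, and the summed list was at 638.4 to 705.7 CPM in the former and 621.1 to 647.5 CPM in the latter. The part of macrophage RNA in the difference of Vtn was not tested.

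With the level of the rod list as a covariate, the Vtn difference between the control groups was 0.25 (edgeR adjusted p = 0.727), and 0 of all tested genes passed in that fit. The rod levels of the control groups did not overlap, nor did their tag numbers (12 in the Bai1 libraries, 17 or 21 in the Mertk libraries), so set, tag and rod level cannot be told apart. Within the Mertk set, where rod levels did overlap, 19 of 20 rod markers were lower in Mertk KO (median -0.68, 0 past the threshold in edgeR and 1 at an unadjusted p under 0.05). There the Vtn difference with the covariate was -0.34 (edgeR adjusted p = 0.156). The wild-type libraries Mertk WT 1 and 4, whose rod levels of 4.83 and 5.11 lay within the Mertk KO range, had Vtn at 50.6 and 54.2 CPM, above all 4 knockout libraries. Mertk WT 2 and 3, with rod levels of 6.81 and 6.5 above the Mertk KO range, had Vtn at 72.2 and 62.2 CPM. The part of rod RNA in the level of Vtn was not tested.

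Vtn was compared with the rod level across the libraries of each set, with both groups of the set pooled. The permutations crossed the groups, so r, rho and p also hold any difference between the groups. In the Mertk set the Pearson r was 0.79 (n = 8, exact permutation p = 0.0219) and the Spearman rho 0.643 (exact permutation p = 0.0962). Without Mertk WT 2 and Mertk WT 3, the libraries farthest from the median rod level, r was -0.064 with the groups still pooled. Within each Mertk group, Vtn rose with the rod level at every step. In Mertk KO it went from 41.1 CPM at a rod level of 4.82 to 46.5 CPM at 5.69. In Mertk WT it went from 50.6 CPM at 4.83 to 72.2 CPM at 6.81. The relation within a group was not tested. In the Bai1 set r was 0.831 (n = 7, exact permutation p = 0.0185) and rho 0.857 (exact permutation p = 0.0238), and without Bai1 Tg neg 3 and Bai1 Tg pos 2 r was 0.958. These are 4 of the values for 14 relations (7 genes in 2 sets) computed after the levels had been seen. None passed after Benjamini-Hochberg adjustment, the adjusted p for Vtn being 0.115 for r in either set, and 0.224 and 0.111 for rho. The lowest adjusted p, 0.0944, belonged to rho for Htra1 in the Bai1 set (rho 0.929).

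**Figure D5:**
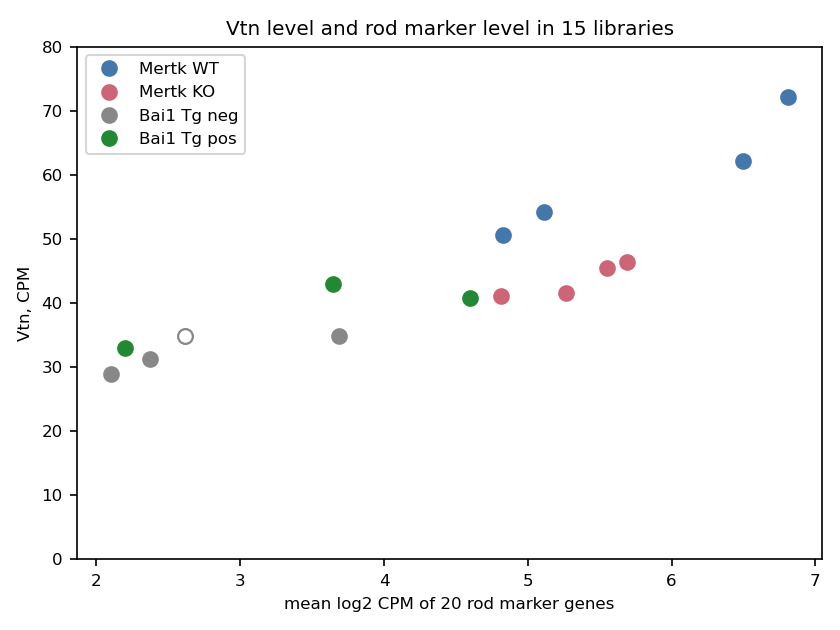
Vtn (CPM) against the mean log2 CPM of 20 rod marker genes in 15 libraries, coloured by group; the open circle marks Bai1 Tg neg 4. Mertk KO libraries (41.1 to 46.5 CPM) lie below Mertk WT libraries of similar rod level (50.6 and 54.2 CPM). Bai1 libraries lie at 28.9 to 43 CPM, and the highest of them, Bai1 Tg pos 1, is above Mertk KO 2 and 4.

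Likeness of profiles was measured as the root mean square difference of log2 CPM, each gene centred on its own mean. It covered 15 libraries and 14037 tested genes. A gene without any variation would lie at the deviation of the gene compared, from 0.076 for Mfrp to 0.356 for Vtn. A low value can therefore come from low variation as well as from likeness. Vtn was nearest to Gnb1, a G protein beta subunit, at 0.191 and Lrit1, a leucine-rich photoreceptor protein, at 0.204. Mfrp was nearest to Gsk3a and Psap (0.05 each), and Col8a1 to Snx3 (0.062) and Atp6v1b2 (0.068). Timp3 was nearest to Opa3 (0.115) and Asrgl1 (0.119), Efemp1 to Acad8 (0.131) and Cebpg (0.133), Htra1 to Usf1 (0.121) and Abcf3 (0.125), and Fbln5 to Mrpl16 (0.135) and Manba (0.142). None of the 7 genes had another of the 7 among its 2 nearest.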

How the data were processed

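RNA from isolated RPE was sequenced in 15 libraries (4 Mertk KO, 4 Mertk WT, 3 Bai1 Tg pos, 4 Bai1 Tg neg), grouped by the genotype in the labels. Per the labels' protocols, poly-A RNA was prepared with the TruSeq kit. STAR and the GRCm38 build are named in the submitters' processing notes. The deposited table holds raw fragment counts per gene, which the authors made with featureCounts 1.5.0 per the file headers, requiring both ends mapped, with no strand option and no assignment to overlapping genes. The sources used here give neither the annotation release nor the STAR version. Fragments from the opposite strand are counted with a gene, so Timp3 and Mfrp may hold some from Syn3 or Rnf26. In each library 3 counts equal 0.15 to 0.313 CPM, a floor that covers counting error only, since PCR fragments without molecular identifiers are not independent.

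CPM were computed with TMM factors over all libraries, and RPKM over exonic bases shared with no other gene. Symbols matched 45143 genes (99.91% of counts). No replicate pair agreed within sampling noise (lowest chi-square per degree of freedom 5.28). Each comparison was fitted alone with edgeR 4.0.16 in R 4.3.3 (TMM, filterByExpr, two-sided robust quasi-likelihood F test) and adjusted by Benjamini-Hochberg over all tested genes and a threshold of 0.05. The code was tested on simulated data. The SE was derived from the fold change and F, and intervals cover 95%. Alternatives were DESeq2 1.42.0, RLE size factors, no low-count filter, all 15 libraries in 1 fit, the rod marker level, the first tag number or the replicate number as a term, each library left out, and, added after the data were seen, Mertk libraries of tag number 17 only. Deviations of same-numbered libraries correlated at -0.114 to 0.236.

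The 8 genes, the 8 pathway lists and the 9 marker lists were chosen with earlier results of these data known. Named besides the 8 were Rpe65, Mertk and Adgrb1 as checks, and pathway list genes past the threshold (up to 4 per list and comparison). Also named were genes among the 2 most abundant of a marker list, the 2 nearest profiles of each gene and genes with overlapping exons. Relatives compared by RPKM, Best1, Rom1, Samd7, genes called by DESeq2 only and Fgfr2 are outside that rule, their values having been seen first.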

Additional observations from a re-analysis of the deposited data

Results flagged for a closer look

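Efemp1 in Bai1 Tg neg 2, at 14.42 CPM, stood apart from the other 3 libraries of its group, which were at 16.42, 16.6 and 16.79 CPM. The gap exceeded Dixon's 95% critical value for 4 values. It was the 1 value to do so among 21 groups of 4 libraries checked (7 genes in 3 groups), and chance flags about 1 in 20 groups.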

How the results depend on the processing

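The count of changed genes in Mertk KO against Mertk WT, 30 as reported, was 74 in DESeq2, 69 without the low-count filter, 14 with tag number 17 only and 16 to 31 with each library left out (16 without Mertk KO 4). In Bai1 Tg pos against Bai1 Tg neg it was 2 as reported, 21 in DESeq2, 85 without the filter, 0 with all 15 libraries in 1 fit, 1 with the rod level and 0 to 54 with each library left out (54 without Bai1 Tg pos 3). Between the control groups it was 58 as reported, 221 in DESeq2, 138 without the filter, 0 with the rod level and 13 to 89 with each library left out (13 without Bai1 Tg neg 1). Of the 7 genes, 1 (Vtn) passed in Mertk KO in DESeq2 and without the filter, and 0 passed between the control groups with the rod level. Of 301 alternative values of single genes, 279 kept direction and call and 19 reversed. Efemp1 in Mertk KO (-0.00) became 0.00181 in DESeq2, 0.000725 without the filter, 0.000219 in the joint fit and 0.00555 with tag 17 only, and Mfrp (-0.01) became 0.00464 with tag 17 only. Htra1 with the rod level was -0.0452 in the Bai1 comparison and -0.031 between the control groups. Left-out libraries gave -0.0734 to 0.104 for Efemp1, -0.0299 to 0.028 for Mfrp and -0.0146 to 0.176 for Htra1 in Mertk KO, and -0.101 to 0.147 for Timp3 and -0.207 to 0.0434 for Fbln5 in the Bai1 comparison. The cause of these changes was not tested. Over the full exonic length, Timp3 was at 462 and Mfrp at 515 RPKM, by construction. With the replicate number as a block, 24 genes passed in Mertk KO, 4 in the Bai1 comparison and 106 between the control groups, and 0, 0 and 1 of the 7. Correlations of same-numbered libraries ran from -0.114 to 0.236. Mertk KO 3 and 4 each correlated most with the Mertk WT library of their own number (0.151 and 0.236). Mertk KO 1 and 2 did not (-0.114 and -0.03). The main fits did not take the numbers as pairs. Depth limits Efemp1 most of the 7, with 3193 counts in all.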
